A study of Homo sapiens with 12 samples.

Results

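The change that 48 h with SK-216 made in PC-9 cells was set against the change it made in H1975 cells, probe set by probe set, over all 12 arrays of the series. Both are lung adenocarcinoma cell lines with a mutated epidermal growth factor receptor, and each gave 2 groups of 3 arrays. The groups H1975-OR and PC9-OR are cells that survived 1 week of 0.5 µM osimertinib, an inhibitor of that receptor, and were called tolerant on day 8. The groups H1975-OR+SK100 and PC9-OR+SK100 are such cells that were still alive 48 h after 100 µM SK-216, a small molecule given only as a code. All 4 groups had therefore been through osimertinib, and each holds only the cells that lived. For the groups with SK-216 the source names speak of naive cells at the start, whereas titles and descriptions speak of tolerant ones, which was followed. Whether the cells still had osimertinib in those 48 h is not stated. Neither line has tolerant arrays of the later time point without SK-216, so compound and time cannot be told apart in either change. The difference of the changes is the PC-9 change minus the H1975 change: a positive value means that a gene went up more, or down less, in PC-9. All 21448 probe sets were tested, of which 17709 carried 1 gene symbol.

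Genes of 3 known programs are described in most detail here. Type I interferon signals through JAK kinases and STAT proteins to a complex with IRF9, which binds the interferon-stimulated response element (ISRE) and switches on antiviral genes such as MX1 and the IFIT family; tumour cells can hold part of this program on without added interferon. Cholesterol synthesis genes are under the SREBP factors, which leave the endoplasmic reticulum when sterols run low and are held back by INSIG1. ATF4 is translated when amino acids are short or the endoplasmic reticulum is stressed, and raises amino acid synthesis, transport and tRNA-charging genes.

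Promoter stretches are shown for 4 genes of the interferon type whose change differed between the lines, and for 1 gene of the ATF4 list that rose alike in both, because these are the letters that the named programs are known to read. They were taken from RefSeq (GRCh38.p14) in the direction of the gene, 5′ to 3′. Capitals mark matches to GAAANNGAA, the core of the ISRE, searched on both strands (here each match lies on the reverse strand), and in GARS1 a match to TGATGNAAT, the core of the amino acid response element, also on the reverse strand. The IFIT1 stretch is chr10:89392483-89392554 on the plus strand, with matches that begin 115 and 102 bases before the annotated start. The IFIT3 stretch is chr10:89327817-89327909 on the plus strand, and the MX1 stretch chr21:41431830-41431888 on the plus strand, from 1 of the 3 MX1 promoters in the table. The TNFSF10 stretch is chr3:172523451-172523641 on the minus strand, and the GARS1 stretch chr7:30594819-30594877 on the plus strand.
IFIT1: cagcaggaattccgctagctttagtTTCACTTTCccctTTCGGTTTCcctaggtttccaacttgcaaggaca
IFIT3: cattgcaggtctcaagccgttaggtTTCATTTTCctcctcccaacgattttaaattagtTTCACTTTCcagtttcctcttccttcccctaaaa
MX1: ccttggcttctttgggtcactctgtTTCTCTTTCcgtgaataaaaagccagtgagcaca
TNFSF10: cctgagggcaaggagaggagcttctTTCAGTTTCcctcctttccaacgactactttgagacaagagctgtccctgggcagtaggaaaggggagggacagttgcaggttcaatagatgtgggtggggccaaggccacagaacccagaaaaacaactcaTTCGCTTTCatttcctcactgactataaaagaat
GARS1: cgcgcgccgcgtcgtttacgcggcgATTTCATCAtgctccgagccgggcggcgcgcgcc

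Within the 250 bases before the start, 26 of 36 measured interferon response genes with a promoter in the table held the ISRE core (72.2%), against 8.41% of all 27305 genes in the table and 7.87% of the 14250 measured genes found there. The share was 14 of 18 among interferon genes whose difference passed the test and 12 of 18 among those whose difference did not. Among the genes called lower in H1975 only, 27 of 120 held it, and without the interferon list 13 of 102 (12.7%). It was found in 1 of 34 genes called higher in H1975 only and in 0 of 15 called higher in PC-9 only. The sterol element core TCACNCCAC was in 0 of 15 cholesterol synthesis promoters and in 1.09% of all genes, and TGATGNAAT was in 1 of 35 ATF4 list promoters, that of GARS1, and in 1.09% of all genes. A match describes the letters of this window and is not a measured binding site.

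The deposited values are log2 signals with 1 value per probe set and array. The lowest was 2.19 and the highest 18.61, with array medians of 6.56 to 6.62. Across probe sets, the correlation r between 2 arrays of the same group was 0.9934 to 0.9953, between groups of a line 0.9919 to 0.9943, and between lines 0.9274 to 0.9323. Olfactory receptor genes, which these cells are not known to use, served to describe a background level: the 95th percentile of their 349 probe sets was 5.14. Of 10 markers of lung adenocarcinoma epithelium, keratins 7, 8, 18 and 19 were above 12 in every group mean, while NAPSA, an alveolar protease, was at or under background on all arrays and SFTPB and NKX2-1, markers of lung lineage, had group means between 4.17 and 5.19. CDH1, also on this list, averaged 7.58 in tolerant H1975 and 11.95 in tolerant PC-9 cells. The median of the 10 markers in tolerant cells was 8.49 in H1975 and 13.3 in PC-9. Of markers of other cell types, 7 of 13 for leukocytes, 4 of 10 for endothelium and 5 of 9 for fibroblasts were at or under background on all arrays of both lines, among them PTPRC, PECAM1, LUM and DCN. The others reached up to 12.35 for leukocytes (CD68, which other cells also express), 7.61 for endothelium and 9.26 for fibroblasts. None of these markers had a called difference. An unadjusted p of 0.05 (limma) was passed by 3 of 13 leukocyte, 0 of 10 endothelial and 3 of 9 fibroblast markers. Over all 21448 probe sets 2723 passed it. These are bulk samples, in which fewer cells of a kind and less RNA per cell cannot be told apart. Separate cultures are not stated for the replicates, and p-values then measure the spread between these arrays only, which may be technical.

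The lines differed in their response to SK-216 on 304 probe sets (1.42% of those tested; limma, adjusted p below 0.05). On 233 of them the difference was positive (1.09%) and on 71 negative (0.331%), so that 76.6% were positive, and on 147 it reached 1 on the log2 scale. More probe sets were called for the response itself in H1975, where 814 probe sets were called (3.8%; 309 rose, 1.44%, and 505 fell, 2.35%), than in PC-9, where 95 were called (0.443%; 80 rose, 0.373%, and 15 fell, 0.0699%). At an unadjusted p below 0.05 (limma) the counts were 3045 and 2342. Called with a change of at least 1 on the log2 scale were 154 in H1975 and 21 in PC-9. The median change of the probe sets called higher was 0.67 in H1975 and 0.66 in PC-9. Each median covers only probe sets that passed in that line, so these medians do not compare the size of the responses. By the calls in each line, 236 of the 304 changed in H1975 only (1.1% of all probe sets), 57 of them upward and 179 downward. Another 21 changed in PC-9 only (0.0979%), 19 upward and 2 downward. Only 5 changed the same way in both lines by unequal amounts (0.0233%), 2 changed in opposite directions (0.00932%), and 40 differed between the lines without a call in either (0.186%). Against these stand 19 probe sets that changed the same way in both lines with no called difference (0.0886%), 16 upward and 3 downward. A call in 1 line is not by itself a difference between lines: 231 probe sets that rose and 321 that fell in H1975 only, and 38 that rose and 10 that fell in PC-9 only, had no called difference. Without array 2 of PC9-OR+SK100 the count in PC-9 was 30 in place of 95, that of the PC-9-only class 6 and that of the shared class 8.

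**Figure D1:**
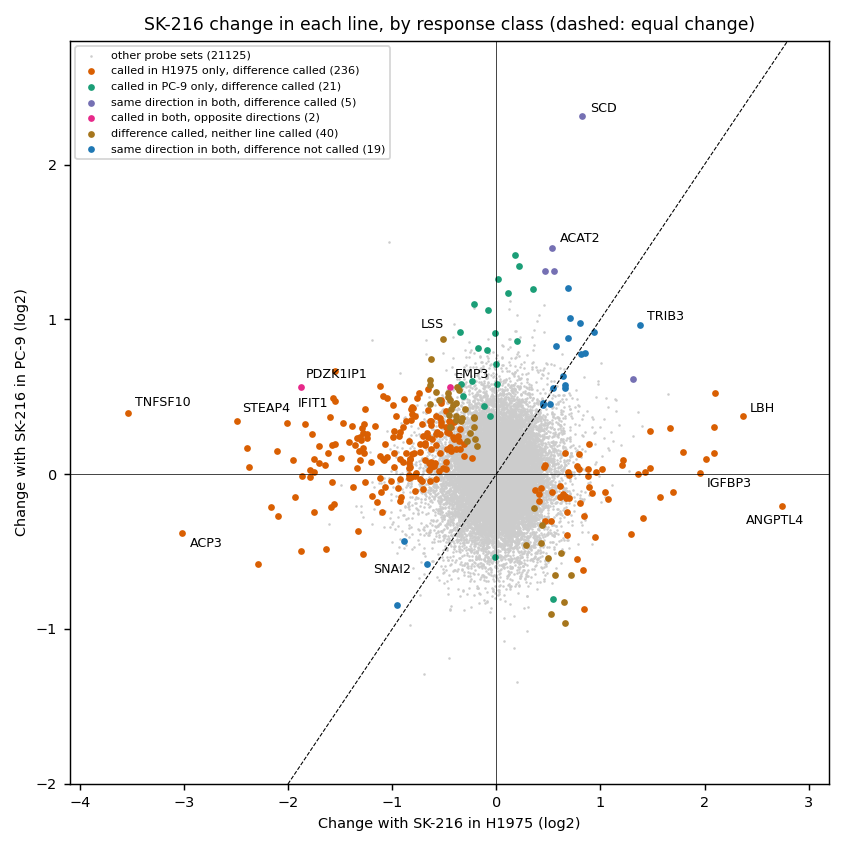
Each point is a probe set, with the SK-216 change in H1975 on the horizontal axis and in PC-9 on the vertical axis (log2, means of 3 arrays against 3); colours give the response class and the dashed line equal change. The 236 probe sets called in H1975 only spread along the horizontal axis, TNFSF10 farthest to the left, and SCD is highest on the vertical axis.

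The split between positive and negative differences moved with the normalization. Over all probe sets sorted by mean level, the median difference ran from -0.0867 in the dimmest of 10 equal groups to 0.0767 in the brightest, and olfactory receptor probe sets had a median of -0.14. After quantile normalization of the arrays the 10 groups lay between -0.0248 and 0.00417, and 306 probe sets were called, 199 positive and 107 negative (65% positive); 263 of them were also called on the deposited values. The 57 named genes with a called difference kept its direction under that normalization, and 3 of them, JUP, KRT8 and PLAU, lost the call.

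**Figure D2:**
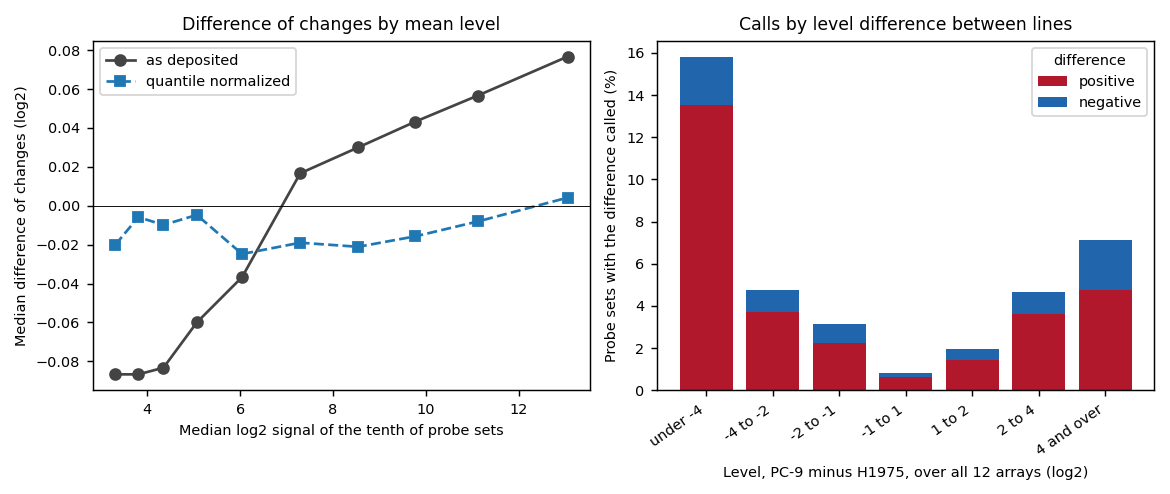
Left, the median difference of changes (PC-9 minus H1975, log2) in 10 equal groups of probe sets against their median level, for the deposited values and after quantile normalization; the deposited values run from -0.0867 to 0.0767. Right, the share of probe sets with a called difference (bars, %) in 7 ranges of the level gap between lines, split into positive and negative. It is lowest, 0.811%, where the lines differ by less than 1. The shares are not split by mean level.

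Interferon response genes fell in H1975 and not measurably in PC-9. Of 45 measured members 31 fell in H1975 and 0 rose, with a median change of -0.91 against 0.01 over all probe sets. In PC-9 none was called, and the median was 0.04. The difference itself was called on 21 of 45, all positive, with a median of 1.01. MX1, an antiviral GTPase, was at 13.09, 12.87 and 13.32 in tolerant H1975 cells and at 11.09, 11.50 and 11.32 after SK-216 (log2 signal). In PC-9 it was at 9.17, 8.91 and 9.07 before and at 9.0, 9.04 and 9.06 after. The 2 groups of H1975 arrays did not overlap, whereas those of PC-9 did: the change was -1.79 ± 0.13 in H1975 and -0.02 ± 0.13 in PC-9 (± standard error of the fit), a difference of 1.77 ± 0.19 (limma, adjusted p = 5.2e-06). The 95% interval of the PC-9 change was -0.30 to 0.26.

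The IFIT proteins bind viral RNA or its cap and showed the same division. IFIT1, whose promoter stretch is printed above, was at 12.44, 12.19 and 12.40 in tolerant H1975 cells and at 10.19, 10.45 and 10.36 after SK-216. In PC-9 all 6 of its values lay between 3.81 and 4.93, under the background level, so its PC-9 change of 0.33 ± 0.22 compares values without clear signal. IFIT3 was above background in PC-9, at 7.22, 7.69 and 7.35 before and 7.42, 7.66 and 7.21 after, groups that overlapped fully, while in H1975 it fell by 1.75 ± 0.16 with no overlap. IFIT2 had a difference of 2.06 ± 0.25, RSAD2, the antiviral enzyme viperin, of 1.86, OAS1, which makes the activator of RNase L, of 1.81, and MX2 of 1.77. IRF9, the DNA-binding partner of the STAT proteins, changed by -1.12 ± 0.19 in H1975 and -0.02 ± 0.19 in PC-9, a difference of 1.10 ± 0.27 (limma, adjusted p = 0.0405) that lost its call in 9 of the 12 fits that left out 1 array each (leave-one-out; highest adjusted p = 0.126). IFNGR1, a receptor chain for interferon gamma, had a difference of 0.98 and was the single member called among 15 interferon ligands and receptors. Without the variance trend of the fit 11 of the 45 members were called.

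**Figure D3:**
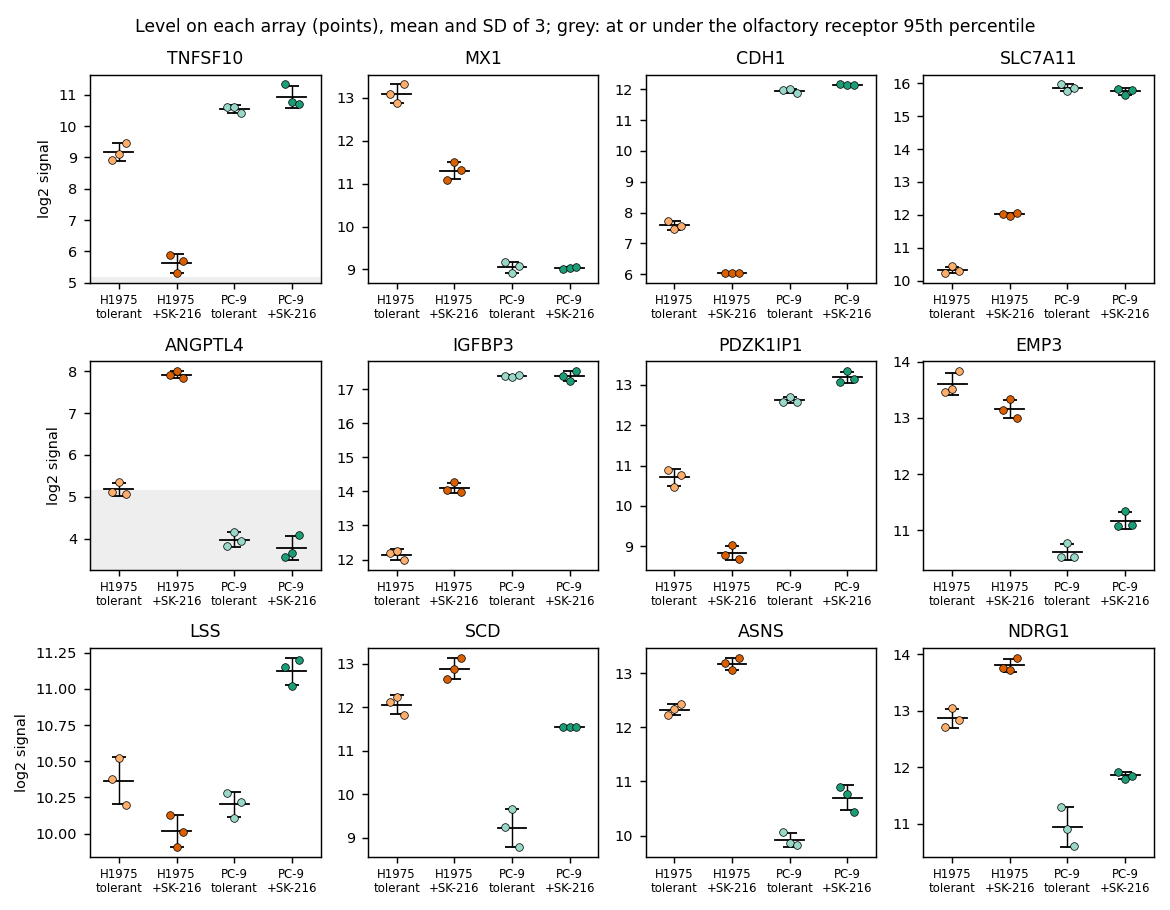
Log2 signal of 12 genes on each array (points) in the 4 groups, with the mean and SD of 3 arrays; grey marks levels at or under 5.14, the background level. The top row holds genes called in H1975 only. There the PC-9 groups of MX1 and SLC7A11 overlap, and those of TNFSF10 and CDH1 stand apart, slightly higher after SK-216. PDZK1IP1 and EMP3 move in opposite directions, LSS and SCD rise most in PC-9, and ASNS and NDRG1 rise alike in both lines.

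Among the named genes TNFSF10 had the largest difference. It encodes TRAIL, a ligand that triggers apoptosis, and is itself interferon-inducible. It was at 8.90, 9.12 and 9.47 in tolerant H1975 cells and at 5.88, 5.30 and 5.68 after SK-216, close to background. The PC-9 values were 10.61, 10.60 and 10.40 before and 11.34, 10.75 and 10.70 after. Arrays did not overlap in either line and went opposite ways: the change was -3.54 ± 0.19 in H1975 and 0.39 ± 0.19 in PC-9, where it missed the call (limma, adjusted p = 0.453). The difference was 3.94 ± 0.27 (limma, adjusted p = 3.32e-09). BID, which carries death receptor signals to mitochondria, had a difference of 0.95, and these 2 were the members called among 10 of the death receptor pathway.

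MHC class I genes, which present peptides to T cells, started at like levels in both lines and still differed in response. Of 15 measured members 4 had a called difference, all positive, and 4 were called lower in H1975. In PC-9 0 were called, where 0.443% of all probe sets were. The median change was -0.447 in H1975, with 0 of 15 estimates above 0, and 0.21 in PC-9, with 11 of 15 above 0. HLA-E, a ligand of natural killer cell receptors, was at 11.79, 11.72 and 11.77 in tolerant H1975 cells and at 10.99, 11.41 and 11.01 after. In PC-9 it was at 11.74, 11.92 and 11.87 before and at 12.28, 12.14 and 11.79 after, so only the H1975 groups stood apart, and the difference was 0.85 ± 0.18 (limma, adjusted p = 0.0136). TAPBPL, which edits the peptides loaded, had a difference of 1.23 ± 0.25 and ERAP2, which trims them, of 0.70 ± 0.16. HLA-F changed by -0.30 ± 0.10 and 0.42 ± 0.10, neither called, with a called difference of 0.72 ± 0.14. The call of HLA-E ended without array 1 of PC9-OR+SK100 (adjusted p = 0.0576) and that of ERAP2 in 3 of the 12 leave-one-out fits (highest adjusted p = 0.0795).

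Cytokine and acute phase genes of the NF-kB list also divided the lines. Of 26 members 12 fell and 2 rose in H1975, 1 fell and 1 rose in PC-9, and the difference was called on 8, all positive (6 after quantile normalization). SAA1, serum amyloid A, was at 15.01, 14.68 and 14.95 in tolerant H1975 cells and at 13.51, 13.48 and 13.22 after. Tolerant PC-9 cells had it at 13.20, 13.53 and 13.41, and it was at 13.70, 13.60 and 13.83 after. Groups did not overlap in either line, and the difference was 1.81 ± 0.15 (limma, adjusted p = 7.02e-08). S100A9 and S100A8, the chains of calprotectin, had differences of 2.42 ± 0.26 and 2.16 ± 0.36; S100A8 was faint in both lines, at 4.99 to 5.88 in tolerant H1975 cells and at or under background in PC-9 (3.68 to 4.44), whereas S100A9 was at 7.90 to 8.14 there and did not move. CXCL6, a neutrophil chemokine, had a difference of 2.04 ± 0.29, CXCL1 of 1.54, CCL2, a monocyte chemokine, of 0.97, and NFKBIA, the inhibitor that NF-kB induces, of 0.57, a call lost after quantile normalization (limma, adjusted p = 0.0728). CXCL8 was called in the other line, rising in PC-9 by 0.76 with no call in H1975 (0.19). Its difference, also positive, was not called (limma, adjusted p = 0.128).

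Other large decreases in H1975 only were those of STEAP4, ACP3, MGP and BMP4. STEAP4, a metalloreductase of the plasma membrane, was at 10.13, 10.11 and 9.78 in tolerant H1975 cells and at 7.72, 7.57 and 7.25 after. In PC-9 it was at 11.59, 11.33 and 11.48 before and at 11.81, 11.78 and 11.83 after, so both lines showed groups that stood apart, in opposite directions, with only H1975 called. Its difference was 2.83 ± 0.20. ACP3, prostatic acid phosphatase, and MGP, an inhibitor of calcification, had differences of 2.64 ± 0.41 and 2.57 ± 0.35, and both were at or under 5.18 on all PC-9 arrays. BMP4, a growth factor, was instead higher in PC-9 (12.22 to 12.65 over its 6 arrays) than in H1975 (7.73 to 9.12 before, 5.50 to 6.48 after), and had a difference of 2.26 ± 0.37. SMAD6, an inhibitor that BMP signals induce, had a difference of 1.55, the only other member called among 20 of TGF-beta and BMP targets.

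CDH1, the epithelial cadherin of adherens junctions, fell in H1975 from 7.73, 7.46 and 7.56 to 6.04, 6.04 and 6.03. In PC-9, where it was far higher, it was at 11.97, 12.01 and 11.88 before and at 12.17, 12.15 and 12.13 after. The change in H1975 was -1.55 ± 0.13 and that in PC-9, with arrays apart but no call, 0.20 ± 0.13 (difference 1.74 ± 0.19, limma, adjusted p = 4.77e-06). Of 22 epithelial genes 4 had a positive difference (CDH1, JUP, KRT8 and KRT18) and 1 a negative one, ESRP1, a splicing factor of epithelia, which rose in H1975 by 1.21 (difference -1.15). After quantile normalization the split was 2 positive and 3 negative. JUP, plakoglobin, and KRT8 lost their calls under that normalization (limma, adjusted p = 0.0506 and 0.0751) and in 8 and 11 of the 12 leave-one-out fits. Of 14 plasminogen activation genes 3 had a positive difference. S100A10 and ANXA2, which form a plasminogen-binding complex on the cell surface, had differences of 0.78 ± 0.14 and 0.44 ± 0.09 (ANXA2 with no call in either line), and PLAU, urokinase, of 0.72 ± 0.18 (limma, adjusted p = 0.0367), a call that ended in 10 of the 12 leave-one-out fits and after quantile normalization. PLAUR, its receptor, had a difference of 0.35 ± 0.21, not called. VIM, a mesenchymal filament protein, stood at 15.72 to 15.78 in tolerant H1975 and at 8.87 to 9.64 in tolerant PC-9 cells and was called in neither line.

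**Figure D4:**
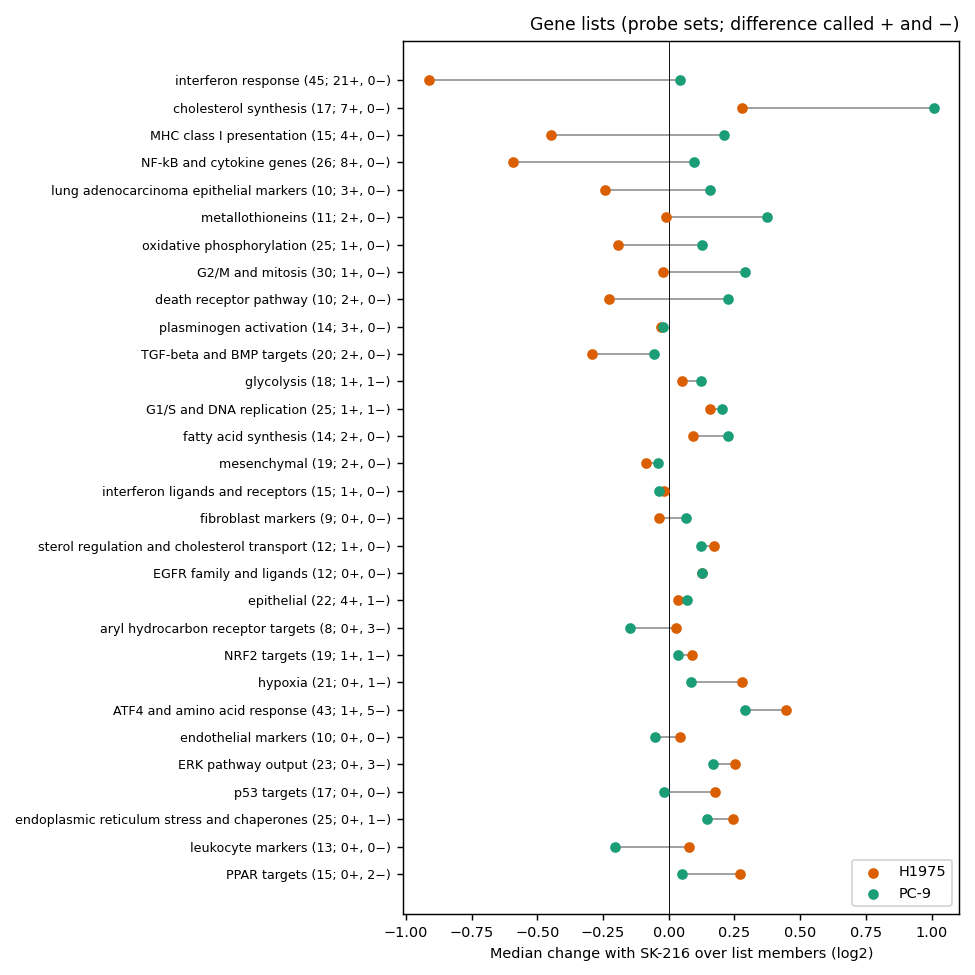
Median SK-216 change over the members of each of 30 gene lists (log2) in H1975 and PC-9; in brackets, the probe sets measured and how many had a called positive or negative difference. The interferon list is farthest to the left in H1975 (-0.91) and near 0 in PC-9, and cholesterol synthesis is farthest to the right in PC-9 (1.01).

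Increases confined by the calls to H1975 included amino acid transport. SLC7A11, the cystine transporter, was at 10.24, 10.43 and 10.29 in tolerant H1975 cells and at 12.03, 11.98 and 12.05 after SK-216. In PC-9 it was at 15.98, 15.77 and 15.86 before and at 15.83, 15.64 and 15.80 after. H1975 arrays rose without overlap and PC-9 arrays overlapped at a level that H1975 did not reach: the changes were 1.70 ± 0.09 and -0.11 ± 0.09, and the difference -1.81 ± 0.13 (limma, adjusted p = 3.32e-09). SLC3A2, the heavy chain with which SLC7A11 and SLC7A5 pair, had a difference of -0.70 ± 0.11, and SLC7A5, the leucine transporter, of -0.80 ± 0.12, each with a PC-9 level above that of H1975 in all groups. ATF3 had a difference of -1.20 and STC2, stanniocalcin 2, of -0.66. SLC38A2, a neutral amino acid transporter, went the other way: it was at 15.09, 15.13 and 15.08 and then at 14.44, 14.55 and 14.69 in H1975, and at 15.08, 14.97 and 14.93 and then 15.24, 15.15 and 15 in PC-9. Only H1975 stood apart, and the difference was 0.68 ± 0.11.

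Genes of lipid handling, growth signalling and xenobiotic response followed. ANGPTL4, an inhibitor of lipoprotein lipase, was at 5.12, 5.35 and 5.06 in tolerant H1975 cells and at 7.90, 8.01 and 7.84 after, while its PC-9 values, 3.56 to 4.16, were under background (difference -2.95 ± 0.30). PLIN2, which coats lipid droplets, had a difference of -1.72, and these 2 were called among 15 PPAR targets. IGFBP3, which binds insulin-like growth factors, rose in H1975 from 12.20, 12.26 and 11.98 to 14.05, 14.27 and 13.99. In PC-9 it was at 17.38, 17.34 and 17.42 before and at 17.39, 17.24 and 17.53 after, among the brightest values of the arrays, so the PC-9 groups overlapped and the difference was -1.95 ± 0.13. RCAN1, a calcineurin inhibitor, started alike in both lines, at 9.83, 9.59 and 9.70 in H1975 and 9.90, 9.89 and 9.58 in PC-9. It reached 11.78, 11.71 and 11.89 in H1975 and stayed at 10.05, 9.86 and 9.87 in PC-9, a difference of -1.95 ± 0.18. LBH, a transcription cofactor, had a difference of -1.99 ± 0.26. AGR2, a protein disulfide isomerase, and STK32A, a kinase, had differences of -1.91 ± 0.36 and -1.79 ± 0.43 and were at or under background in PC-9; the call of STK32A ended in 7 of the 12 leave-one-out fits.

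Of 23 genes read out from the ERK pathway 3 had a negative difference. FOSL1, an AP-1 subunit, changed by 1.67 ± 0.16 in H1975 and 0.30 ± 0.16 in PC-9 (difference -1.37 ± 0.23), CCND1, cyclin D1, by 0.79 ± 0.11 and 0.03 ± 0.11, and IER3, an immediate early gene, by 0.61 ± 0.07 and -0.08 ± 0.07. Of 8 aryl hydrocarbon receptor targets 3 had a negative difference as well. CYP1A1, a P450 enzyme, was at 6.77, 6.61 and 6.51 and then 8.30, 7.18 and 8.28 in H1975, and at 5.99, 5.92 and 5.37 and then 5.40, 5.27 and 5.44 in PC-9; array 2 of H1975-OR+SK100 was the lowest of its group, and the call of the difference, -1.68 ± 0.36, ended without either of the other arrays of that group (highest adjusted p = 0.0532). TIPARP, a repressor of the receptor, changed by 0.84 ± 0.09 in H1975 and -0.27 ± 0.09 in PC-9, where its arrays stood apart without a call. CYP1B1 did not change in H1975 (-0.01 ± 0.08, interval -0.19 to 0.16) and fell in PC-9 by 0.54 ± 0.08, the 1 named gene among the 2 probe sets called lower in PC-9 only. The call of its difference ended in 3 of the 12 leave-one-out fits. EGFR itself, the target of osimertinib, changed by 0.52 ± 0.12 in H1975 and 0.10 ± 0.12 in PC-9, and its difference was not called (limma, adjusted p = 0.29).

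Cholesterol synthesis was the program that rose more in PC-9. Of 17 measured members 13 rose in PC-9 and 6 in H1975, none fell, and the difference was positive and called on 7. The median change was 1.01 in PC-9 and 0.28 in H1975. FDPS, farnesyl diphosphate synthase, was at 11.41, 11.86 and 11.48 in tolerant PC-9 cells and at 12.75, 12.66 and 12.85 after, and in H1975 at 12.04, 11.92 and 12.21 before and 12.10, 12.31 and 12.08 after. PC-9 groups stood apart and H1975 groups overlapped, with changes of 1.17 ± 0.12 and 0.11 ± 0.12 and a difference of 1.06 ± 0.17 (limma, adjusted p = 0.000963). MVD and IDI1, the enzymes on either side of isopentenyl diphosphate, had differences of 1.23 ± 0.29 and 1.13 ± 0.23. LSS, lanosterol synthase, was at 10.38, 10.52 and 10.20 and then 10.13, 9.91 and 10.01 in H1975, and at 10.28, 10.11 and 10.22 and then 11.15, 11.02 and 11.20 in PC-9. The lines started alike and parted in opposite directions with no overlap in either: -0.35 ± 0.12, not called, and 0.92 ± 0.12, a difference of 1.27 ± 0.18. The call of MVD ended in 5 of the 12 leave-one-out fits.

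The same direction with unequal size was measured for 3 further enzymes of the pathway. HMGCS1, which makes HMG-CoA, changed by 0.55 ± 0.10 in H1975 and 1.31 ± 0.10 in PC-9, CYP51A1, lanosterol demethylase, by 0.46 ± 0.10 and 1.31 ± 0.10, and ACAT2, which supplies acetoacetyl-CoA, by 0.54 ± 0.15 and 1.46 ± 0.15. SCD, the desaturase that makes oleate, was at 9.26, 9.66 and 8.79 in tolerant PC-9 cells and at 11.56, 11.54 and 11.56 after, and in H1975 at 12.13, 12.24 and 11.82 before and 12.66, 12.87 and 13.14 after. Arrays rose without overlap in both lines, by 2.32 ± 0.16 and 0.83 ± 0.16 (difference 1.49 ± 0.23), and PC-9 still ended below the level at which H1975 started. FADS2, another desaturase, and TMEM97, a regulator of cholesterol transport, rose in PC-9 only, with differences of 0.72 and 0.66. SREBF1 and SREBF2, which encode the SREBP factors, were called in neither line, with differences of 0.04 ± 0.27 and 0.14 ± 0.21. UPP1, uridine phosphorylase, was the exception in this class, rising more in H1975 (1.31 ± 0.12) than in PC-9 (0.61 ± 0.12). The calls of ACAT2 and UPP1 ended in 4 and 7 of the 12 leave-one-out fits.

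Other genes called in PC-9 only lay outside the lipid lists. ATP1B3, a subunit of the sodium pump, was at 9.05, 8.90 and 8.78 and then 9.56, 10.02 and 9.59 in PC-9, with no change called in H1975 (-0.18 ± 0.15), and had a difference of 0.99 ± 0.21 that ended without array 3 of H1975-OR or array 2 of PC9-OR+SK100 (highest adjusted p = 0.0524). DPYSL3, a cytoskeletal regulator, rose from 2.92, 2.97 and 2.65 to 3.75, 4.00 and 3.97, all under background, and MFAP5, a microfibril protein, from 9.11, 8.82 and 8.56 to 10.14, 9.98 and 9.67; their differences of 1.14 ± 0.29 and 1.32 ± 0.32 lost their calls in 11 and 9 of the 12 leave-one-out fits. Metallothioneins, which bind zinc and copper are nearly identical to each other, so their signals may not be separate. In PC-9 4 of 11 rose and in H1975 0, and the difference was called for MT1H (0.92) and MT2A (0.44), the latter lost after quantile normalization (limma, adjusted p = 0.143). Leaving out 1 array gave 0 to 4 called metallothioneins. The G2/M list had a median of 0.29 in PC-9 and -0.02 in H1975, with 2 rises in PC-9 and 1 called difference among 30, that of CENPA, the centromere histone (0 to 2 when 1 array was left out). MKI67 and CCNB1 had differences of -0.08 ± 0.21 and 0.58 ± 0.18, neither called.

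Shared changes came from the ATF4 response, from sterol synthesis and from a few other genes. Of 43 ATF4 list probe sets 24 rose and 1 fell in H1975 and 8 rose in PC-9. In 7 of them both lines rose with no called difference: ASNS, PSAT1, CHAC1, TRIB3, GARS1, DDIT4 and ATF4. ASNS, asparagine synthetase, rose from 12.22, 12.33 and 12.43 to 13.18, 13.06 and 13.28 in H1975 and from 10.07, 9.86 and 9.83 to 10.90, 10.77 and 10.44 in PC-9. No groups overlapped, and the changes of 0.85 ± 0.12 and 0.78 ± 0.12 differed by -0.06 (95% interval -0.42 to 0.29), although the levels lay more than 2 apart. PSAT1, of serine synthesis, had a difference of 0.02 (interval -0.23 to 0.27; -0.02 after quantile normalization), TRIB3, a pseudokinase that ATF4 induces, of -0.42 (-0.94 to 0.10), and ATF4 itself of -0.06 (-0.34 to 0.22). CHAC1, which degrades glutathione, changed by 0.81 and 0.77, GARS1, glycyl-tRNA synthetase, by 0.45 and 0.46, and DDIT4, an inhibitor of mTORC1, by 0.64 and 0.63. DDIT3, the stress factor CHOP, rose in H1975 (1.65 ± 0.23) and was not called in PC-9 (0.52 ± 0.23), yet its difference of -1.13 ± 0.32 missed the threshold (limma, adjusted p = 0.0825); it passed in 2 of the 12 leave-one-out fits (lowest adjusted p = 0.0257). The list thus held shared increases beside the transporters SLC7A11, SLC3A2 and SLC7A5, whose difference was called.

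NDRG1, a gene of the hypoxia list, rose from 12.72, 13.05 and 12.83 to 13.76, 13.72 and 13.94 in H1975 and from 11.30, 10.91 and 10.60 to 11.92, 11.80 and 11.85 in PC-9. Groups stood apart in both, and the difference was -0.02 (interval -0.41 to 0.37). HIF1A was called lower in H1975 (-0.47 ± 0.12), with a difference of 0.15 ± 0.17. In cholesterol synthesis MSMO1, DHCR7 and SQLE were shared, with differences of 0.17 (interval -0.09 to 0.43), 0.30 (0.02 to 0.58) and 0.52 (0.05 to 0.99), as was INSIG1, the sterol-regulated retention factor, at 0.19 (-0.36 to 0.74). SNAI2, a repressor of epithelial genes, fell from 11.98, 12 and 11.98 to 11.19, 11.39 and 11.38 in H1975 and from 11.25, 11.12 and 11.18 to 10.69, 10.52 and 10.59 in PC-9, with a difference of 0.08 (-0.23 to 0.40). TNFAIP2 was the other named gene lower in both lines. For all 19 shared probe sets the 95% interval of the difference stayed within 1 of 0 on the log2 scale, and for 11 within 0.5. The shared call of INSIG1 was kept in 1 of the 12 leave-one-out fits and that of ATF4 in 6, and the PC-9 call of ATF4 was lost after quantile normalization (limma, adjusted p = 0.0677).

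Opposite responses with a call in both lines were limited to 2 genes. PDZK1IP1, a small membrane protein of epithelial tumours, was at 10.90, 10.48 and 10.76 and then 8.79, 9.03 and 8.68 in H1975, and at 12.59, 12.70 and 12.59 and then 13.08, 13.35 and 13.14 in PC-9. EMP3, a membrane protein of the PMP22 family, was at 13.47, 13.51 and 13.84 and then 13.14, 13.33 and 13.00 in H1975, and at 10.53, 10.77 and 10.52 and then 11.07, 11.34 and 11.09 in PC-9. Neither gene had overlapping groups in either line. PDZK1IP1 changed by -1.88 ± 0.13 and 0.56 ± 0.13 (difference 2.44 ± 0.18) and EMP3 by -0.45 ± 0.12 and 0.56 ± 0.12 (difference 1.01 ± 0.17). The differences kept their calls in all 12 leave-one-out fits, but the opposite direction rests on PC-9 calls near the threshold (limma, adjusted p = 0.0417 and 0.0326): without any 1 PC-9 array that of PDZK1IP1 ended (highest adjusted p = 0.287), and after quantile normalization both did (adjusted p = 0.0629 and 0.0687). For EMP3 the H1975 call was as near it (limma, adjusted p = 0.0345), ended in 4 of the 12 leave-one-out fits (highest adjusted p = 0.222) and after quantile normalization (adjusted p = 0.053), and both calls held together in 3 of the 12 fits. By estimates alone, 86 probe sets had a called difference, opposite signs and no overlap between groups in either line, 67 lower in H1975 and higher in PC-9 and 19 the reverse; over all probe sets 18.5% had no overlap in H1975 and 15% in PC-9.

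The 40 probe sets that differed without a call in either line all had estimates of opposite sign. The calling thresholds fix this, since uncalled changes of the same direction cannot differ by enough for a call. It is therefore no result about these genes. Of the 40, 29 were lower in H1975 and higher in PC-9 and 11 the reverse. Sizes were 0.19 to 0.71 in H1975 and 0.18 to 0.96 in PC-9. CASP4, an inflammatory caspase, changed by -0.33 ± 0.10 and 0.36 ± 0.10 (difference 0.69 ± 0.14), SNX7, a sorting nexin, by -0.36 ± 0.13 and 0.54 ± 0.13 (0.90 ± 0.19), and KRT18, a keratin of simple epithelia, by -0.26 ± 0.07 and 0.26 ± 0.07 (0.52 ± 0.11). In 27 of the 40, arrays did not overlap in either line. Over all probe sets 18.5% had no overlap in H1975 and 15% in PC-9, and the share without overlap in both lines was not counted. Choosing by a called difference favours groups that stand apart, so this count is not separate support for opposite responses.

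Genes that responded in H1975 only often started from different levels in the lines, and so did other called genes. Starting levels lay within 1 of each other for 78.8% of all probe sets. This held for 49% of the 571 called in H1975 without a called difference, 40% of the 95 called in PC-9 and 31.6% of the 19 shared. A gap at the start was thus not particular to the genes called in 1 line only. Of the 179 probe sets called lower in H1975 only, 79 were lower in tolerant PC-9 cells by at least 1 (44.1%, against 11.4% of all probe sets), 67 were within 1 (37.4% against 78.8%) and 33 were higher (18.4% against 9.8%). At or under background on all 6 PC-9 arrays were 25 of them (14%), against 31.6% of all probe sets. A called fall in H1975 needs signal there, so all probe sets are not a like set. In H1975, 1.68% of this class and 32.1% of all probe sets were at or under background. Of the 571 called in H1975 without a called difference, 7.36% were at or under background in PC-9. For the 25 probe sets of this class at or under background in PC-9, such as IFIT1, S100A8 and IFI44L, the PC-9 values held little signal that could fall. Of the 57 called higher in H1975 only, 22 started higher in PC-9 (38.6% against 9.8%), SLC7A11 and IGFBP3 among them, and 9 started lower. Of the 19 called higher in PC-9 only, 10 started lower in PC-9 by at least 1 (52.6%, against 11.4% of all probe sets). Among all 95 probe sets called in PC-9 the share was 50.5%, so it was not particular to this class. Tolerant arrays enter both the starting level and the change, so these are counts without a test, and counts from the level over all arrays are given after the plot of starting levels.

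The interferon list shows this most clearly by count. Of its 45 members 33 started lower in PC-9 by at least 1 and 0 higher, and the difference was called on 19 of those 33 and on 2 of the other 12, PARP9 and SAMD9L. Some members were well above background in PC-9: IFI6, an antiviral membrane protein, started at 9.25 there and 14.63 in H1975, and IFITM3, which blocks virus entry, at 12.99 and 16.57. Their PC-9 changes were 0.31 and 0.34, not called, with 95% intervals above 0 (0.01 to 0.61 and 0.13 to 0.55). After SK-216 the fall in H1975 still left 40 of 45 members higher in H1975 than in PC-9; MX1 ended at 11.30 in H1975 against 9.03 in PC-9. In the MHC class I list 11 of 15 members were within 1 at the start, and the 4 called differences were among the 12 members that did not start lower in PC-9 by 1.

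**Figure D5:**
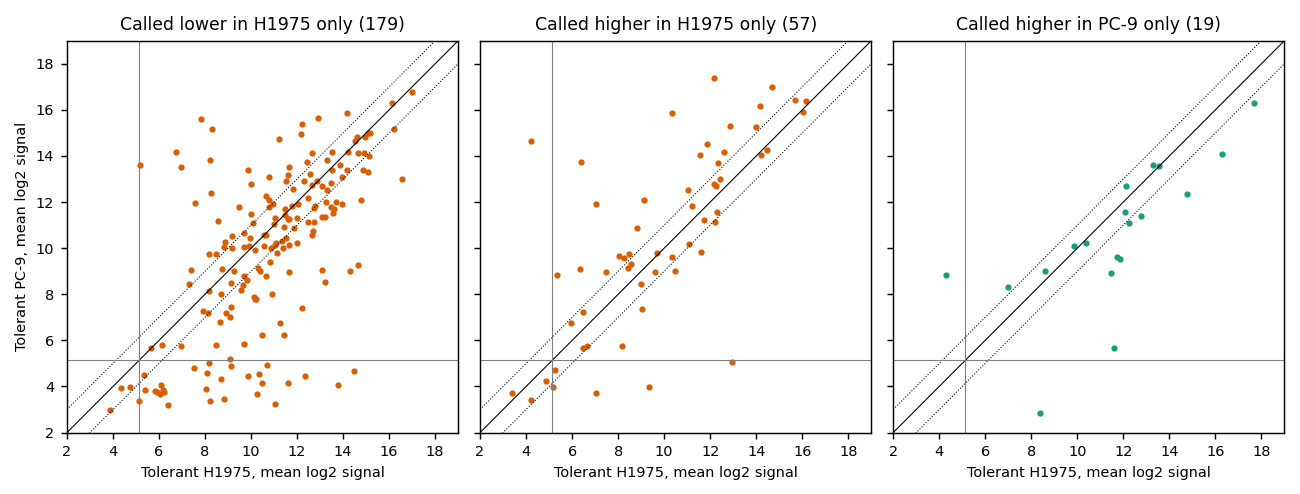
Mean log2 signal in tolerant H1975 (horizontal) and tolerant PC-9 cells (vertical) of the probe sets called in 1 line only with a called difference; the solid line marks equal level, dotted lines a gap of 1 and grey lines the background level of 5.14. In the left panel 79 of 179 points lie below the lower dotted line, and in the middle panel 22 of 57 lie above the upper one. By the level over all 12 arrays, which the SK-216 change itself moves, these counts were 62 and 17.

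The level gap between lines averaged over all 12 arrays shares no error with the difference of changes in this balanced design. It includes the SK-216 arrays, so a fall in H1975 raises this gap (PC-9 minus H1975) and a rise in H1975 lowers it. By that gap, 62 of the 179 probe sets called lower in H1975 only were lower in PC-9 by at least 1 and 39 higher, a narrower split than by starting level. Of the 57 called higher in H1975 only, 19 were lower and 17 higher, without the lean toward a higher PC-9 level seen at the start. Both classes thus moved the way that the H1975 change itself moves this gap. These counts therefore do not test the relation to starting level. Of the 19 called higher in PC-9 only, 9 were lower and 2 higher. The difference was called on 0.811% of the 17023 probe sets whose level differed by less than 1. The share was 3.13% where PC-9 was lower by 1 to 2, 4.78% by 2 to 4 and 15.8% by more than 4, and 1.94%, 4.67% and 7.11% where PC-9 was higher by those amounts. Positive differences prevailed on both sides, as they did over all probe sets. Calls were also more frequent at high mean level. The dimmest of 10 equal groups of probe sets held 1 positive and 0 negative calls, and the brightest 73 and 22. The shares by level gap were not split by mean level, so they do not separate the gap from the signal level. SK-216 did not bring the called genes of both lines uniformly together: the gap in level was smaller after SK-216 for 166 of the 304 (54.6%), against 49.7% of all probe sets.

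Other lists held few or no calls, and with 1.42% of all probe sets called, 0 or 1 call in lists of this size is near the background. There were 0 among 17 p53 targets and 0 among 12 genes of the EGFR family and its ligands. At an unadjusted p below 0.05 (limma) there were 4 and 1, beside 2723 of all 21448 probe sets. In oxidative phosphorylation 1 of 25 was called, with medians of -0.19 in H1975 and 0.13 in PC-9, and in endoplasmic reticulum stress 1 of 25, HSPA5, the chaperone BiP, at -0.42 after a rise in H1975 only (0 to 1 call when 1 array was left out, 3 after quantile normalization). The hypoxia list had 1 called difference among 21, that of PFKFB3, a regulator of glycolysis (-1.36), whose calls in the single lines were absent. In this list 6 of 18 promoters held ACGTGC, the core of the hypoxia response element (33.3%, against 7.11% of all genes). A p that misses the threshold does not show that the lines acted alike: in simulated data the fit recovered 66% of planted differences of 1 and 6% of those of 0.5.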

How the data were processed

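Log2 signals, 1 per probe set and array, were used as deposited by the authors for 12 human transcriptome arrays; per the submitters' processing notes they were made with Transcriptome Analysis Console. For its version, background correction and normalization: not given in the sources used here. No depth applies, and the number of arrays, 3 per group, limits the precision.

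All 21448 probe sets were fitted together, with 1 mean per group, in limma 3.58.1 (R 4.3.3; empirical Bayes with a variance trend, 8 residual degrees of freedom), with Benjamini-Hochberg adjustment over all of them and calls at adjusted p below 0.05. Calls in the difference and in each line set the response classes. The background level was the 95th percentile of olfactory receptor values. Genes were named by class, non-overlapping arrays and size, plus up to 4 per gene list and a few fixed genes. The members and lists were chosen with earlier results of these data known. On simulated data, differences of 0.5, 1, 1.5 and 2 were planted, 50 of each. Of these, 3, 33, 41 and 50 were recovered (6%, 66%, 82% and 100%). False calls were 13 among 21248 unchanged probe sets. Set beside the recovered calls, they are a larger share. Alternatives changed the variance model, normalization, filters, array weights, thresholds, replicate block and arrays included. Replicate numbers did not pair the samples: same-numbered arrays' deviations correlated at -0.091 to 0.06 over 18 pairs. Promoters came from RefSeq (GRCh38.p14). Some genes of these pathways are not reported here.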

Additional observations from a re-analysis of the deposited data

Results flagged for a closer look

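For 57 of the named genes the test of the difference itself passed (limma, adjusted p below 0.05 over 21448 probe sets), which is what sets them down here; each value is the PC-9 change minus the H1975 change on the log2 scale. Among genes called in H1975 only, the positive differences, where H1975 fell, were those of ACP3 (2.64), BMP4 (2.26), MGP (2.57), STEAP4 (2.83), TNFSF10 (3.94), IFIT1 (2.34), S100A9 (2.42), SLC38A2 (0.68), JUP (0.67), KRT8 (0.34), CDH1 (1.74), IFIT2 (2.06), IFIT3 (1.76), MX1 (1.77), ERAP2 (0.70), HLA-E (0.85), TAPBPL (1.23), CXCL6 (2.04), S100A8 (2.16), SAA1 (1.81), S100A10 (0.78), PLAU (0.72) and IRF9 (1.10). The negative ones, where H1975 rose, were those of AGR2 (-1.91), ANGPTL4 (-2.95), IGFBP3 (-1.95), LBH (-1.99), RCAN1 (-1.95), STK32A (-1.79), SLC7A11 (-1.81), CYP1A1 (-1.68), TIPARP (-1.11), SLC3A2 (-0.70), SLC7A5 (-0.80), CCND1 (-0.76), FOSL1 (-1.37) and IER3 (-0.69).

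Among genes called in PC-9 only, the positive differences were those of ATP1B3 (0.99), DPYSL3 (1.14), IDI1 (1.13), MFAP5 (1.32), MVD (1.23), FDPS (1.06) and LSS (1.27), and CYP1B1 had a negative one (-0.52). Genes that rose in both lines by unequal amounts were ACAT2 (0.93), SCD (1.49), UPP1 (-0.70), CYP51A1 (0.85) and HMGCS1 (0.76). The opposite pair was EMP3 (1.01) and PDZK1IP1 (2.44). Without a call in either line, the difference was called for CASP4 (0.69), SNX7 (0.90), KRT18 (0.52), HLA-F (0.72) and ANXA2 (0.44).

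Of these 57 calls, 41 were kept in all 12 leave-one-out fits. Over the 23 alternative fits run, 26 were kept in every fit that tested the gene. Of these 26, AGR2 and S100A8 were left out by a filter on dim probe sets and so were not tested in all 23.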

How the results depend on the processing

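No called difference of a named gene turned its sign under any alternative run. Fitted without the variance trend, 99 probe sets differed between lines (76 positive, 23 negative), with 88 called in H1975 only, 5 in PC-9 only, 0 unequal, 0 opposite, 6 with no line called and 4 shared, and 448 and 18 called in H1975 and PC-9; the cause was not tested. At adjusted p below 0.01 there were 136 (109 positive, 27 negative), with 116 in H1975 only, 3 in PC-9 only, 3 unequal, 0 opposite, 14 with no line called and 7 shared. A size of at least 1 left 147 (111 and 36). Requiring the other line's interval within 0.5 of 0 left 121 in H1975 only and 12 in PC-9 only. The opposite class held 0 after quantile normalization or cyclic loess (chosen after seeing the data), 1 with array weights, 4 without dim probe sets (by either filter) and 86 by estimates with arrays apart. Negative differences numbered 107 after quantile normalization and 109 without probe sets at olfactory receptor levels, and the class with no line called 71 with that filter and 70 without the dimmest 30%; fewer probe sets were tested in both filters. Cyclic loess gave 302 calls, 68.9% positive.

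With the replicate number as a block over both lines 282 differed, with 1 opposite. With it within each line 247 differed, with 1 opposite, 3 unequal and 11 shared, and 58 were called in PC-9. The numbers do not pair these samples.

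Leaving out each array in turn gave 220 to 335 differences (170 to 259 positive, 50 to 86 negative), 170 to 239 in H1975 only, 6 to 25 in PC-9 only, 3 to 5 unequal, 0 to 3 opposite, 24 to 70 with no line called and 8 to 21 shared, and 545 to 918 and 30 to 104 calls in H1975 and PC-9. The lowest PC-9 counts came without array 2 of PC9-OR+SK100, and the highest count with no line called without array 2 of PC9-OR. With 3 arrays per group, differences near 0.5 were mostly not detectable, and values near the background level have no settled fold.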
